A study of Homo sapiens with 6 samples.

Results

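The 33 genes described here are glycolysis and hypoxia response genes, given as a list of symbols grouped by what they are known for, and all 33 are among the 30017 genes of the count table. They comprise 2 glucose uptake genes, 17 genes of glycolytic enzymes and 14 genes of the hypoxia-inducible factor (HIF) pathway and its targets. Of these, 32 had enough reads to be tested; EGLN3 had 0 counts in all 6 libraries. The RNA-seq libraries, made from total RNA after removal of ribosomal RNA, come from the BLaER1-CTCF-mAID subclone of a human B cell leukaemia line, which turns into macrophage-like cells when the transcription factor CEBPA is switched on. In this subclone CTCF, a DNA-binding protein that organises chromatin loops, carries an auxin-inducible degron, and all 3 groups carry it. The 0 h cells received no factors. The 96 h control cells received 17β-estradiol, IL-3 and CSF-1, which drive the conversion, and no IAA (indole-3-acetic acid, the auxin that triggers degradation of the tagged protein). The 96 h CTCF-depleted cells received the same factors together with IAA and are called depleted cells below. Partway through the culture their medium was exchanged for fresh medium with the factors and IAA. An exchange for the control cells is not described. Each group has 2 libraries, described as biological replicates, and all come from 1 subclone. No library of IAA-treated cells without the degron was analysed here, so that effects of IAA and of CTCF loss cannot be told apart. Neither can effects of the medium exchange, if only the depleted cells had it.

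Glycolysis splits glucose into pyruvate in a chain of enzymatic steps, many of which can be catalysed by several isozymes encoded by separate genes. Under low oxygen, or when oxygen-dependent prolyl hydroxylases such as EGLN1 are inactive, HIF alpha subunits escape degradation, pair with ARNT and bind promoters that carry a short hypoxia response core. HIF targets include glucose transporters, most glycolytic enzymes, and genes that steer pyruvate away from mitochondria, remove mitochondria and promote vessel growth. Macrophages are known for a high capacity for glycolysis and for use of the HIF pathway during activation.

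Total counts ranged from 9273470 to 12718780 per library, and expression is given as CPM, read counts scaled to the library total with TMM factors. CTCF transcript levels were between 174 and 231 CPM in the 6 libraries; the degron acts on the protein, so that this transcript does not check the depletion. The labelled cell types were checked with 10 B cell and 10 macrophage markers. All 10 B cell markers fell and all 10 macrophage markers rose in 96 h control against 0 h. The summed B cell markers went from 4000 to 4045 CPM at 0 h to 439 to 449 CPM in control and 453 to 467 CPM in depleted cells. The summed macrophage markers went from 75.3 to 82.9 CPM to 5752 to 6015 CPM and 5614 to 5698 CPM. Of 8 markers of T, NK and erythroid cells, only CD2 and NKG7 had enough reads to be tested and both rose; the sum of the list went from 2.48 to 2.85 CPM at 0 h to 38.1 to 38.5 CPM in control and 32.5 to 34.5 CPM in depleted cells, while CD3D, HBB and HBA1 were at 0 in all 6 libraries. The part of such cells in the results below was not tested. In these bulk samples, fewer cells of a type and less RNA per cell cannot be told apart.

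**Figure D1:**
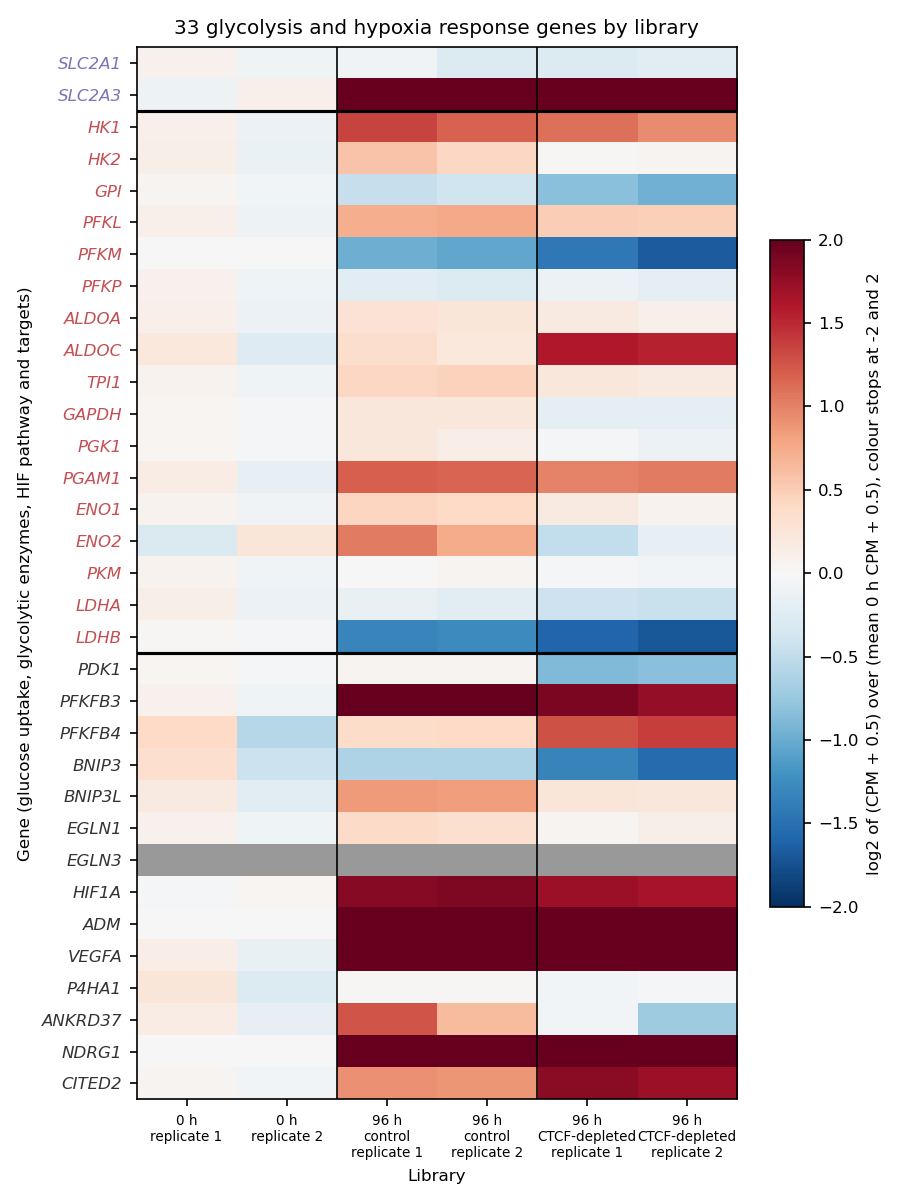
Heatmap of the 33 genes (rows, grouped from top to bottom as glucose uptake, glycolytic enzymes, and HIF pathway and targets) in the 6 libraries (columns). Colour is log2 of (CPM + 0.5) over (mean 0 h CPM + 0.5) and saturates at 2 in either direction; EGLN3 is grey because it had 0 counts. SLC2A3, ADM, VEGFA and NDRG1 are saturated red in all 4 libraries at 96 h, while ALDOC, PFKFB4 and CITED2 are redder, and PDK1 and BNIP3 bluer, in the depleted libraries than in the control libraries.

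To see which of these genes change as the cells convert, 96 h control was compared with 0 h. Here and below, a gene is called by edgeR's quasi-likelihood test. The Benjamini-Hochberg adjusted p had to be below 0.01 and the log2 fold change had to pass 0.6 in either direction. Errors of log2 fold changes are approximate SE, the absolute log2 fold change divided by the square root of the F statistic of the test. They were not estimated directly. They may be too small for large changes, and for genes whose 2 libraries of a group differ widely. Of the 32 genes tested, 13 were higher, 2 were lower and 17 were not called. Over all genes tested, 25.4% were called higher and 22.9% lower in this comparison, 48.3% in all. The median log2 fold change was 0.43 over the 32 genes and 0.02 over all genes. ADM, which encodes the vasodilator peptide adrenomedullin, had 0 counts in both 0 h libraries and was tested only because of its reads at 96 h, so that its place among the 13 was fixed by the filter. The medians stay the same with ADM at its lower bound. Without the fold threshold, 21 genes were higher (34.5% of all genes) and 6 lower (33.7%) at an adjusted p below 0.01.

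The transcripts of the glucose transporters shifted toward SLC2A3. SLC2A3, a high-affinity glucose transporter, was at 15.1 and 17.5 CPM at 0 h, at 210 and 206 CPM in 96 h control and at 171 and 157 CPM in depleted cells. All 96 h libraries lay far above both 0 h libraries, and the control rose 12.7-fold over 0 h (log2 fold change 3.66 ± 0.08 SE, edgeR adjusted p = 1.67e-44). SLC2A1, the transporter found in most proliferating cells, was at 40.6 and 36.3 CPM at 0 h, at 36.6 and 31.8 CPM in control and at 31.7 and 32.98 CPM in depleted cells. Its groups overlapped, and it was not called (log2 fold change −0.16 ± 0.09 SE). Per kilobase of exon, SLC2A1 made up 73.5% ± 3.6 (SD, n = 2) of the reads of the pair at 0 h, 16.1% ± 1.15 in control and 18.9% ± 1.37 in depleted cells. SLC2A14 is a near-identical paralogue of SLC2A3, and reads could be split between them; SLC2A14 itself went from a mean of 0.497 CPM at 0 h to 11.6 CPM in control.

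Among the glycolytic enzymes, 4 of 17 rose, 2 fell and 11 were not called at 96 h in control cells. The shares over all genes tested were 25.4% higher and 22.9% lower, so that the enzymes were not called more often than other genes. HK1, a hexokinase that traps glucose in the cell, rose from 96.4 and 83.2 CPM to 230 and 203 CPM (log2 fold change 1.28 ± 0.06). PGAM1, the phosphoglycerate mutase, rose from 62.7 and 50.7 CPM to 131 and 128 CPM (log2 fold change 1.20 ± 0.07). PFKL, the liver-type subunit of phosphofructokinase, rose from 102 and 88.7 CPM to 158 and 162 CPM (log2 fold change 0.75 ± 0.06). In all 3 genes the groups were well separated. ENO2, the neuronal enolase, had only 11 and 25 counts at 0 h against 41 and 31 counts in control, and its rise (log2 fold change 1.06 ± 0.35, adjusted p = 0.00536) was not called without 0 h replicate 1, where the log2 fold change was 0.78, or without either control library. The genes that fell were PFKM, the muscle-type phosphofructokinase subunit, and LDHB, the lactate dehydrogenase subunit that favours lactate oxidation. PFKM went from 126 and 125 CPM to 63.6 and 60.5 CPM (log2 fold change −1.02 ± 0.07), and LDHB from 673 and 658 CPM to 267 and 274 CPM (log2 fold change −1.30 ± 0.05). The widely used reference gene GAPDH, a dehydrogenase of the pathway, was higher by a log2 fold change of 0.23 ± 0.05, which is under the fold threshold. PKM, the pyruvate kinase, differed by 0.02 ± 0.05, and the 11 enzymes not called ranged from −0.42 for GPI to 0.51 for HK2.

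Several isozyme pairs changed their proportions with these moves. Per kilobase of exon, HK2 held 58.3% ± 0.29 (SD, n = 2) of the hexokinase reads at 0 h and 29.9% ± 0.65 in control, while the myeloid hexokinase HK3 went from 0.168% to 33.8% ± 1.66. PFKL went from 35.4% ± 1.23 to 57.0% ± 1.16 of the phosphofructokinase reads, and PFKM from 27.2% ± 1.78 to 12.9% ± 0.46. LDHA, the subunit that favours lactate formation, went from 44.8% ± 2.41 to 63.7% ± 1.30 of the lactate dehydrogenase reads, while its own level had a log2 fold change of −0.19 ± 0.05 and LDHB fell. In each of these cases the 0 h libraries and the control libraries did not overlap. The summed hexokinase level rose from a mean of 43.0 to 119 CPM per kilobase, whereas the summed lactate dehydrogenase level went from 595 to 368 CPM per kilobase. ALDOA held 98.1% of the aldolase reads at 0 h and 98.0% in control, and ENO1 held 98.9% of the enolase reads in both groups. GAPDH and ENO1 had the highest and second highest level per kilobase of the 33 genes in all 3 groups.

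**Figure D2:**
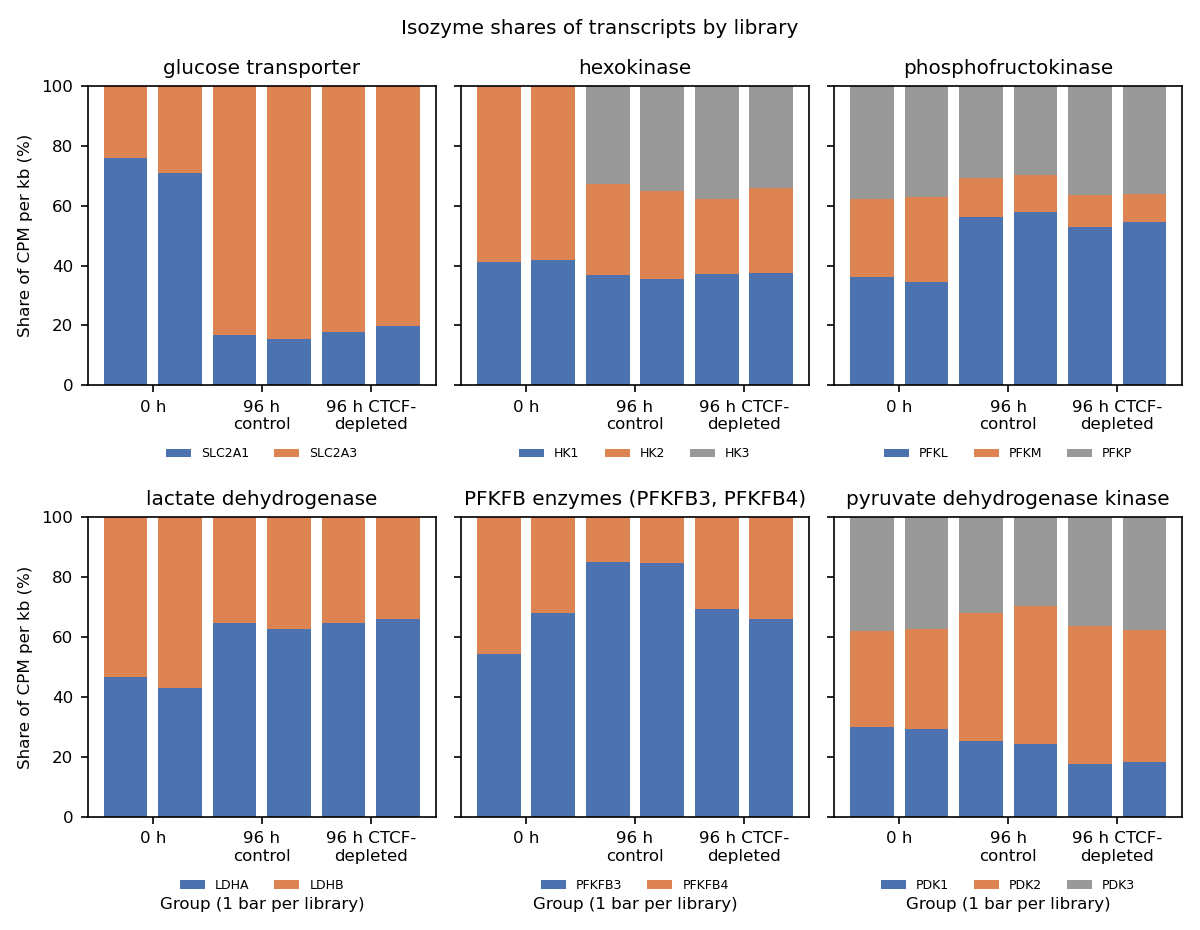
Stacked bars show, for each library (1 bar, 2 per group), the share in percent of the CPM per kilobase of merged coding-gene exons that each isozyme took at 6 steps. SLC2A3 fills most of the transporter bar at 96 h, HK3 takes a visible share of the hexokinase bar at 96 h but not at 0 h, and the PFKFB4 share is larger in CTCF-depleted than in control libraries.

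Within the HIF pathway and targets, 8 of the 13 genes tested rose and none was called lower in 96 h control. For comparison, 25.4% of all genes tested were called higher and 22.9% lower. ADM counts among the 8, and its call was fixed by the filter. NDRG1, a stress-response gene induced by hypoxia, was at 5.57 and 5.63 CPM at 0 h and at 280 and 273 CPM in control, a 49.2-fold rise (log2 fold change 5.62 ± 0.08, adjusted p = 1.05e-51). VEGFA, the vascular growth factor, went from 32.4 and 26.3 CPM to 312 and 304 CPM, a 10.6-fold rise (log2 fold change 3.41 ± 0.06). PFKFB3, whose product makes the bisphosphate that activates phosphofructokinase, went from 48.8 and 43.2 CPM to 224 CPM in both control libraries (log2 fold change 2.29 ± 0.06). For these genes all 96 h values exceeded all 0 h values by a wide margin. HIF1A, the HIF alpha subunit itself, rose from 216 and 228 CPM to 786 and 814 CPM (log2 fold change 1.85 ± 0.05). Its transcript level says nothing of the protein, which is regulated by degradation. ADM was at 2.74 and 1.57 CPM in control, at least 16.5-fold above 0 h when 0 h is set at the floor of 3 counts over the group (0.130 CPM). CITED2, a coregulator that competes with HIF for its coactivators, rose by a log2 fold change of 0.92 ± 0.09, and BNIP3L, a receptor for the removal of mitochondria, by 0.86 ± 0.07. ANKRD37, a small ankyrin repeat gene induced by hypoxia, rose by 1.31 ± 0.41 on 12 counts in each 0 h library and on 37 and 21 counts in control. It was not called without either 0 h library or without control replicate 1, where the log2 fold change was 0.85. With DESeq2 or with glmTreat, neither ANKRD37 nor ENO2 was called in control against 0 h.

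The remaining 5 tested genes of the group were not called. PDK1, the kinase that inhibits pyruvate dehydrogenase, was at 52.3 and 49.3 CPM at 0 h and at 52.7 and 52.9 CPM in control. P4HA1, a subunit of the collagen prolyl hydroxylase, had a log2 fold change of 0.03 ± 0.09, and EGLN1, the oxygen-sensing hydroxylase, one of 0.36 ± 0.07. PFKFB4, the second bisphosphate-producing enzyme, and BNIP3, the sister gene of BNIP3L, had log2 fold changes of 0.45 ± 0.13 and −0.59 ± 0.13, and both depend on which 0 h library is used. PFKFB4 was at 29.3 CPM in 0 h replicate 1 and at 14.7 CPM in replicate 2. BNIP3 was at 45.5 and 26.7 CPM. Without 0 h replicate 1, PFKFB4 was called higher (log2 fold change 0.97) and so was HK2 (0.62), and without 0 h replicate 2, BNIP3 was called lower (−1.0003).

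The 0 h libraries also differed from each other in other listed genes. P4HA1 was at 63.1 and 44.03 CPM, ALDOC at 13.7 and 9.75 CPM, and BNIP3L at 102 and 77.5 CPM, each higher in replicate 1. Among the 11 genes of the HIF group with a mean of at least 10 CPM, 3 (27.3%) were higher in replicate 1 by over 0.4 on the log2 scale, compared with 1.68% of the 9858 tested genes at that level. HIF1A went the other way (216 and 228 CPM). Of 14 further hypoxia-induced genes at that level, 1 was higher in replicate 1 and 1 in replicate 2 by over 0.4, with differences from −0.46 to 0.60. The median difference over the 29 listed genes at 10 CPM or more was 0.16 at 0 h, 0.03 in control and 0.06 in depleted cells, and 0 of the 29 passed 0.4 in either group at 96 h. The limit of 0.4 was chosen after the values were seen, and what set these 2 libraries apart was not tested.

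**Figure D3:**
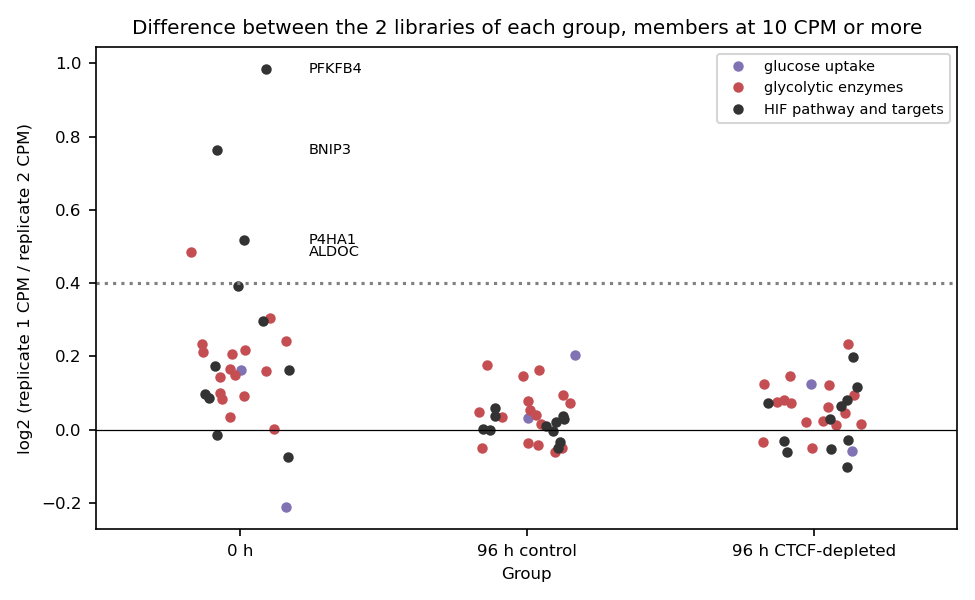
Each point is 1 of the 29 listed genes with a mean of at least 10 CPM; the vertical axis is log2 of replicate 1 CPM over replicate 2 CPM, and the horizontal axis is the group, with random horizontal scatter. PFKFB4, BNIP3, P4HA1 and ALDOC lie above the dotted line at 0.4 at 0 h, and no gene does so in the groups at 96 h.

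To determine how these genes respond when conversion takes place with IAA, 96 h CTCF-depleted cells were compared with 96 h control cells. ALDOC, PFKFB4 and CITED2 rose, while ENO2, PDK1, BNIP3, BNIP3L and ANKRD37 fell, and the other 24 of 32 genes were not called. Over all genes tested, 5.41% were called higher and 7.03% lower, 12.4% in all. Below the fold threshold most of the list was slightly lower. At an adjusted p below 0.01 of any size, 22 of 32 genes were lower, compared with 17.4% of all genes. Among genes with a mean of at least 10 CPM, 20 of 29 were lower, compared with 22.3%. The log2 fold change was below 0 for 27 of 32 genes, compared with 54.2% of all genes, and the median was −0.26, compared with −0.03. The libraries of the groups did not overlap for 30 genes (67.9% of all genes); SLC2A1 and ADM overlapped. These shares describe the list and are not a test of it.

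**Figure D4:**
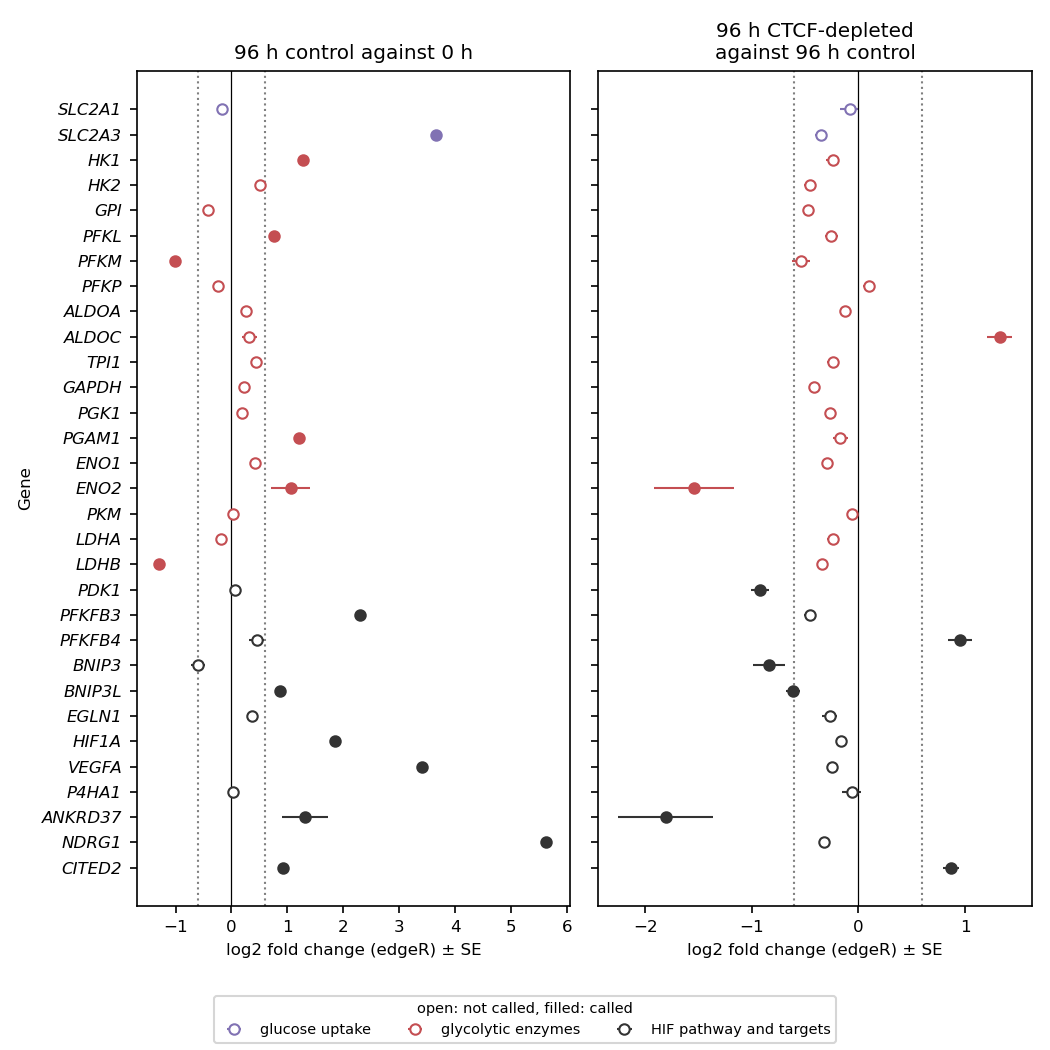
Log2 fold change with its SE (horizontal axes, of different range) for 31 genes (rows) in 96 h control against 0 h (left) and in 96 h CTCF-depleted against 96 h control (right). EGLN3 had no counts and ADM has only a lower bound on the left, so that neither is drawn. Filled points were called, and dotted lines mark 0.6 in either direction; on the right most open points lie just left of 0, with ALDOC, PFKFB4 and CITED2 beyond the right line.

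The genes that rose comprise an aldolase, a regulator of glycolytic flux and a HIF coregulator. ALDOC, the brain-type aldolase (chr17:28573115-28576948, minus strand), was at 15.1 and 13.6 CPM in control and at 36.8 and 35.2 CPM in depleted cells. Both depleted libraries exceeded all 4 others, with a 2.503-fold difference from control (log2 fold change 1.32 ± 0.12, edgeR adjusted p = 4.88e-14). Its share of the aldolase reads per kilobase went from 2.00% ± 0.09 to 5.29% ± 0.04 (SD, n = 2), so that ALDOA remained the main aldolase in all groups. PFKFB4 (chr3:48517684-48562015, minus strand) was at 28.6 and 29.3 CPM in control and at 53.9 and 57.9 CPM in depleted cells (log2 fold change 0.95 ± 0.11, adjusted p = 5.47e-10). PFKFB3 was lower in the same cells, at 171 and 157 CPM against 224 CPM in both control libraries, which is under the fold threshold (log2 fold change −0.45 ± 0.06). The PFKFB4 share of the pair went from 15.2% ± 0.21 to 32.2% ± 2.35. CITED2 (chr6:139371807-139374648, minus strand) was at 47.4 and 46.5 CPM in control and at 88.0 and 83.2 CPM in depleted cells (log2 fold change 0.87 ± 0.08, adjusted p = 2.51e-14). For PFKFB4 and CITED2, too, both depleted libraries were above the other 4.

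Among the genes that fell, PDK1 (chr2:172555373-172608669, plus strand) was at 52.7 and 52.9 CPM in control and at 27.3 and 28.4 CPM in depleted cells (log2 fold change −0.92 ± 0.08, adjusted p = 9.62e-14). Both values also lay below the 0 h libraries. BNIP3 (chr10:131967684-131981967, minus strand) was at 23.5 and 23.3 CPM in control and at 14.0 and 12.2 CPM in depleted cells (log2 fold change −0.84 ± 0.15, adjusted p = 5.40e-06). BNIP3L was at 163 and 160 CPM in control and at 107 and 105 CPM in depleted cells. Its log2 fold change of −0.61 ± 0.07 sat at the fold threshold and was called in 3 of 15 settings, with values from −0.61 to −0.57. ENO2 (chr12:6913745-6923698, plus strand) had 10 and 14 counts in depleted cells, against 41 and 31 in control (log2 fold change −1.54 ± 0.38, adjusted p = 0.000727). ANKRD37 (chr4:185396021-185400628, plus strand) had 11 and 5 counts in depleted cells, against 37 and 21 in control (log2 fold change −1.81 ± 0.45, adjusted p = 0.00081). Groups did not overlap in either gene, but the calls rest on few reads: both were lost without control replicate 1 (log2 fold changes −1.33 and −1.35), ENO2 also without depleted replicate 1 (−1.29) and ANKRD37 also without depleted replicate 2 (−1.32). With DESeq2 only ALDOC, CITED2 and PDK1 were called.

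**Figure D5:**
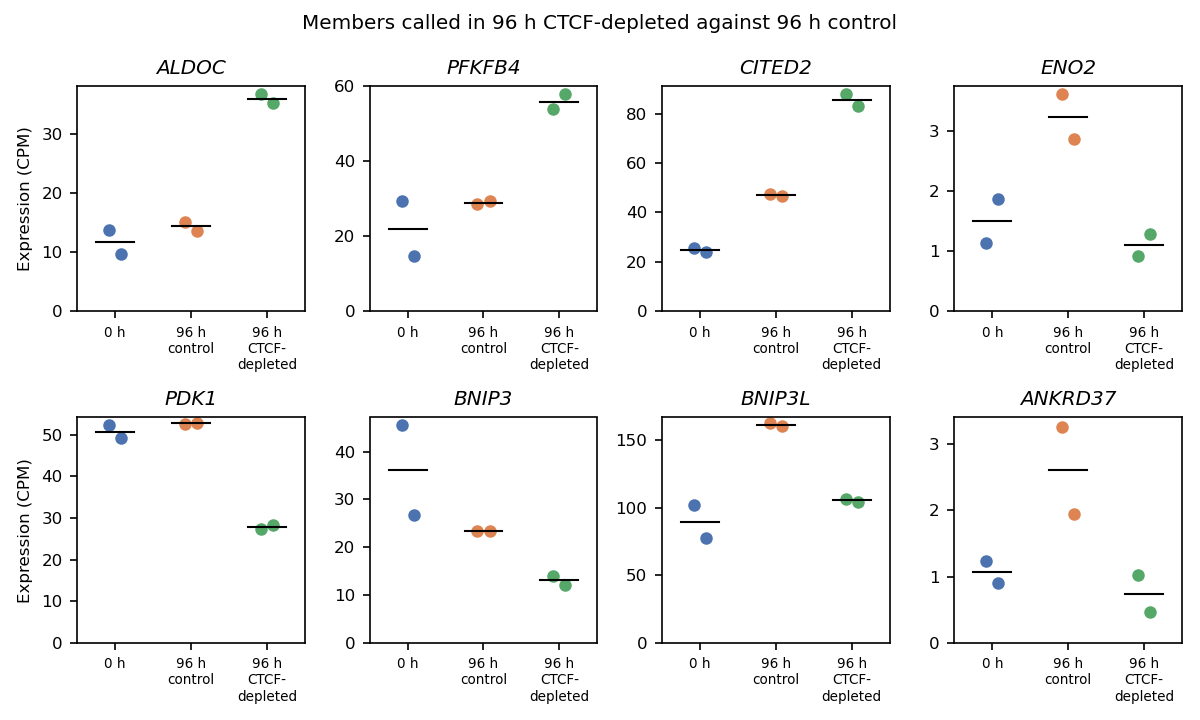
Expression in CPM (vertical axes from 0) of the 8 genes called in depleted against control cells; each point is 1 library and the line is the mean of 2. ALDOC, PFKFB4 and CITED2 (first 3 panels) are highest in the depleted libraries, PDK1 and BNIP3 lowest there, while ENO2, BNIP3L and ANKRD37 lie closer to their 0 h values than the control libraries do.

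Promoter stretches of 2 genes that rose and 2 that fell are shown because each holds the hypoxia response core. RefSeq windows (GRCh38.p14) of 250 bases before an annotated start site were found for 29 of the 33 genes, with 54 windows in all; BNIP3L, NDRG1, SLC2A3 and VEGFA were not matched. Cores searched were ACGTG and GCGTG on either strand, so that CACGTG holds a core on each strand. A core was present in 13 of 16 windows of the HIF group (81.2%) and in 19 of 37 windows of glycolytic enzymes (51.4%), compared with 54.0% of the windows of genes tested and 43.2% of all 35116 windows. The stretches below run 5′ to 3′ on the strand of the gene and leave out bases in annotated exons, and capitals mark the cores. They lie at chr17:28576949-28577145 (ALDOC), chr6:139374649-139374898 (CITED2), chr10:131981968-131982173 (BNIP3) and chr4:185396591-185396810 (ANKRD37).
ALDOC: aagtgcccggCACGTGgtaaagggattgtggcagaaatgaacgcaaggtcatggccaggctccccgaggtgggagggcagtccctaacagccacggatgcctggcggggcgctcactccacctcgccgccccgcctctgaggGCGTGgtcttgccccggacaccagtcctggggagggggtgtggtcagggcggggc
CITED2: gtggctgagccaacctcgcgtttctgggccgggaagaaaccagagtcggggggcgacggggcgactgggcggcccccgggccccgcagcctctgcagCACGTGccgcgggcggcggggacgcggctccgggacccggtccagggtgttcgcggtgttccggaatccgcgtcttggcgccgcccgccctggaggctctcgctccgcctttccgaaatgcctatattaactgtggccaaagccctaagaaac
BNIP3: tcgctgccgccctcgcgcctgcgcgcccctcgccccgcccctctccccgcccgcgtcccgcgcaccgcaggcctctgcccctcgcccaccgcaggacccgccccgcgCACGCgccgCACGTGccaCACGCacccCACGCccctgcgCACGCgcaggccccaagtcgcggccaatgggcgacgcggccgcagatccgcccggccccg
ANKRD37: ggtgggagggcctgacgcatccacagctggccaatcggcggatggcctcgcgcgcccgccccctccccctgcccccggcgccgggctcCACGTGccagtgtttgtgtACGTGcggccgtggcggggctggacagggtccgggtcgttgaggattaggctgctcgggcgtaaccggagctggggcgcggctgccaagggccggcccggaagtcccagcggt
The ALDOC, CITED2 and ANKRD37 stretches each hold a CACGTG, and so does that of BNIP3, in a cluster of further cores; the 4 were chosen for their cores. ENO2 and PFKFB4 had 1 core in their window, and PDK1 had 0 cores in one window and 2 in the other, neither in its longest stretch outside exons. A match of letters is a description and not a bound site.

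Several genes that were not called had small differences with an adjusted p below 0.01. GAPDH was at 2722 and 2696 CPM in control and at 2044 and 2021 CPM in depleted cells (log2 fold change −0.41 ± 0.05, edgeR adjusted p = 2.48e-10). GPI, the phosphoglucose isomerase, went from 263 and 275 CPM to 202 and 186 CPM (log2 fold change −0.47 ± 0.05), and PFKM from 63.6 and 60.5 CPM to 46.2 and 39.2 CPM (−0.54 ± 0.08). The log2 fold change was −0.45 ± 0.06 for HK2 and −0.35 ± 0.06 for SLC2A3. For HK1, PFKL, ALDOA, TPI1, PGK1, PGAM1, ENO1, LDHA, LDHB and EGLN1 it lay between −0.34 (LDHB) and −0.13 (ALDOA). Of these, ALDOA and PGAM1 did not pass 0.01, with edgeR adjusted p-values of 0.0394 and 0.0384. Summed over the 17 enzymes, expression was 8783 and 8644 CPM in control, 7331 and 7088 CPM in depleted cells and 8443 and 7693 CPM at 0 h, so that the CTCF-depleted sums were below all others. With 2 libraries in a group, an exact permutation test of such a sum cannot go below p = 0.333. PKM, P4HA1, PFKP and SLC2A1 had log2 fold changes between −0.08 and 0.10 and adjusted p-values of 0.179 or more. HIF1A was at 730 and 698 CPM against 786 and 814 CPM in control, a log2 fold change of −0.16 ± 0.04, and VEGFA and NDRG1 had log2 fold changes of −0.24 ± 0.05 and −0.32 ± 0.05. ADM was at 4.35 and 2.67 CPM, which overlaps its control values.

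Compared with 0 h, the depleted cells had 11 genes higher, 5 lower and 16 not called, while 27.2% of all genes were called higher, 25.2% lower and 52.5% in all. This comparison shares its 0 h libraries with that of the control cells, so that the values are given side by side. The lower genes were GPI (log2 fold change −0.90 ± 0.05, −0.42 in control), PFKM (−1.55 ± 0.08, −1.02), LDHB (−1.64 ± 0.05, −1.30), PDK1 (−0.86 ± 0.08, 0.06) and BNIP3 (−1.43 ± 0.14, −0.59). ALDOC (1.64 ± 0.12, 0.32) and PFKFB4 (1.40 ± 0.12, 0.45) were called in depleted cells and not in control cells, and their own contrast above tests that difference. Without 0 h replicate 1, PFKFB4 was also called in control cells (0.97). When 1 library was left out, the depleted value ranged from 0.92 to 1.95 for PFKFB4 and from −1.81 to −1.003 for BNIP3. CITED2 rose by 1.78 ± 0.08, compared with 0.92. BNIP3L, which rose in control cells, was at 0.25 ± 0.07 and not called. SLC2A3, NDRG1, VEGFA, HIF1A and PFKFB3 rose by 3.32, 5.30, 3.17, 1.68 and 1.84, and ADM was at least 27.0-fold above the 0 h floor.

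Other genes of the same pathways were described from further lists. Of 18 tested genes from 24 further hypoxia-induced genes, 1 was higher and 7 lower in depleted against control cells, compared with 5.41% and 7.03% of all genes. DDIT4, an inhibitor of mTOR signalling, had a mean of 20.5 CPM at 0 h, 329 CPM in control and 116 CPM in depleted cells (log2 fold change −1.51 ± 0.06, edgeR adjusted p = 1.17e-29). BHLHE40, a transcriptional repressor, went from 190 to 76.2 CPM (−1.32 ± 0.07), and HMOX1, the haem oxygenase, from 50.8 to 19.9 CPM (−1.35 ± 0.10). KDM3A, a histone demethylase, HILPDA, a lipid droplet protein, MIF, a cytokine, and TFRC, the transferrin receptor, fell with log2 fold changes of −0.70, −0.69, −0.69 and −0.69. FAM162A, a mitochondrial protein, was higher (0.71 ± 0.11). Among 12 tested genes of the HIF factors and oxygen-sensing machinery, only ARNT2, a partner of HIF alpha, was called (1.03 ± 0.15, a mean of 9.61 against 19.6 CPM). ARNT differed by −0.03 ± 0.06, VHL by 0.08 ± 0.05 and EPAS1 by 0.05 ± 0.12.

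Genes around the glycolytic chain were described in that comparison from further lists, beside the 12.4% of all genes called. SLC2A5, the fructose transporter, was the 1 of 9 other glucose transporters tested that changed, with means of 51.8 CPM at 0 h, 30.2 CPM in control and 14.2 CPM in depleted cells (log2 fold change −1.09 ± 0.11). Of 7 tested further isozymes, BPGM, which makes the bisphosphoglycerate that regulates haemoglobin, was higher (1.15 ± 0.19). Of 10 genes of glycogen and glucose phosphate metabolism, PGM2 was higher (0.87 ± 0.08), and of 16 genes of lactate and pyruvate handling, PC, the pyruvate carboxylase, was lower (−0.84 ± 0.22). None of 8 tested pentose phosphate genes was called, while PGD had a log2 fold change of −0.35 ± 0.05 at an edgeR adjusted p of 6.38e-09. In control against 0 h, 3 of the 16 lactate and pyruvate genes were higher and 6 lower, and 4 of the 10 glycogen and glucose phosphate genes were higher and 2 lower, compared with 48.3% of all genes called.

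Some of these values share reads with other annotated features. GENCODE release 44 lists 65 pseudogenes named after GAPDH, 44 after BNIP3 and 13 after PGAM1, which could take or give reads. Under such names the count table holds 0 rows for GAPDH, 0 for BNIP3 and 1 for PGAM1, with 0.0151% of the PGAM1 counts. Exons of ANKRD37 overlap UFSP2 on the other strand, those of PDK1 overlap PDK1-AS1 and those of PFKM overlap SENP1. The strand setting of the counting is not given in the sources used here, so that reads of such pairs may not be told apart. UFSP2 was at 6.57 and 5.71 CPM in depleted and at 9.18 and 9.82 CPM in control cells (log2 fold change −0.63 ± 0.19). SENP1 was at 34.4 and 35.3 CPM against 44.5 and 48.1 CPM (−0.41 ± 0.08). Their part in the ANKRD37 and PFKM values was not tested. Among the markers, CD22 and ITGAM rose in depleted against control cells (log2 fold changes 1.47 and 1.15) and VPREB1, IGLL1 and RAG1 fell. These are 5 of the 20 B cell and macrophage markers, compared with 12.4% of all genes called. Their part in the changes above was not tested.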

How the data were processed

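RNA-seq libraries were made from total RNA of 2 biological replicates in each of 3 groups. The raw counts were made by the authors, as deposited. Reads were aligned to hg38 with STAR 2.6.1d and counted per gene with featureCounts 2.0.6, described as over protein-coding exons. The counts also include pseudogenes of TPI1 and PGAM1, so that they are not limited to protein-coding genes. Strand setting and annotation release are not given in the sources used here. Differences between groups were tested on the counts with edgeR 4.0.16 in R 4.3.3 (filterByExpr, TMM, quasi-likelihood fit of all 6 libraries, group as the only term), and p-values were adjusted over 14758 genes with the Benjamini-Hochberg method. CPM values were divided by merged exon lengths of GENCODE release 44 to compare genes. On simulated data for CTCF-depleted against control cells, 200 of 200 changed genes were recovered among 13992, with 0 false calls. Every simulated gene had the same spread (a biological coefficient of variation of 3.96%), and the changed genes were well expressed and changed beyond the fold threshold. The simulation therefore cannot show how often genes with a wider spread between libraries are called falsely. Recovery of genes near the fold threshold, or of genes with as few counts as ENO2 and ANKRD37, was not tested. The pairing of replicate numbers was checked: deviations correlated at −0.0194, 0.0109 and −0.0294, so that they were not used as pairs. Alternatives were DESeq2 1.42.0, RLE scaling, other filters and thresholds, glmTreat, 4 libraries only, a replicate block and leaving out each library. RefSeq promoter windows outside chromosome 8 were searched for motifs. Genes named are the listed members that were called or whose group they describe, and called genes of the further lists; others were chosen after their values were seen. The members and lists were chosen with earlier results of these data known. P-values measure only the spread between these libraries. The fit shares that spread largely over all genes (51.7 prior degrees of freedom). SE and p-values may therefore be too small for genes such as PFKFB4 and BNIP3, whose 0 h libraries differ.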

Additional observations from a re-analysis of the deposited data

Results flagged for a closer look

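For 8 genes the change from 0 h to 96 h differed between CTCF-depleted and control cells by a test of the difference itself, the contrast of the 96 h groups (edgeR, Benjamini-Hochberg adjusted p below 0.01 and a log2 fold change beyond 0.6 in either direction). The difference in log2 fold change was 1.32 for ALDOC (1.64 in CTCF-depleted and 0.32 in control cells), 0.95 for PFKFB4 (1.40 and 0.45) and 0.87 for CITED2 (1.78 and 0.92). It was −0.92 for PDK1 (−0.86 and 0.06), −0.84 for BNIP3 (−1.43 and −0.59) and −0.61 for BNIP3L (0.25 and 0.86). For the sparsely counted genes it was −1.54 for ENO2 (−0.48 and 1.06) and −1.81 for ANKRD37 (−0.50 and 1.31). Both changes of a gene are set against the same 0 h libraries, and over all genes 12.4% were called in this contrast. Not all 8 calls held in other settings: with DESeq2 only ALDOC, CITED2 and PDK1 were called, and BNIP3L was called in 3 of 15 settings. With 2 libraries in each group, outlying libraries could not be tested for.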

How the results depend on the processing

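Over 14 alternatives and 3 comparisons, 1338 values of the listed genes were recomputed: 1255 stayed on their side of the thresholds, among them 16 values of genes not called whose sign changed, while 33 dropped below the thresholds, 50 passed them, and 0 called values changed sign. With an adjusted p below 0.05 and no fold threshold, 22 genes were higher and 6 lower in control against 0 h, 24 were lower in depleted against control cells, and 9 were lower in depleted cells against 0 h. The count of genes lower in depleted against control cells, 5 as reported, was 1 with DESeq2, 1 with glmTreat and 3 with at least 10 counts in every library, under which ANKRD37 was not tested. DESeq2 gave adjusted p = 0.0525 for PFKFB4 and 0.0562 for BNIP3; the cause was not tested. Leaving out 1 library at a time gave 11 to 13 higher and 2 to 3 lower genes in control against 0 h, 3 higher and 2 to 4 lower in depleted against control cells, and 11 to 12 higher and 5 lower in depleted cells against 0 h. The replicate numbers share only a number; with the replicate block 3 genes were higher and 5 lower in depleted against control cells, and the block changed none of the counts of calls among the listed genes. An arm left with 1 library is assumed to vary like the other groups. Depth limits ENO2, ANKRD37 and ADM, which had at most 47 counts in any library, and EGLN3, whose 0 counts allow up to 0.130 CPM at 0 h.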
